A study of Mus musculus with 6 samples.

Results

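The SLC25 genes encode the mitochondrial carriers, the largest family of solute carriers. They were taken as every row of the count table whose symbol is Slc25a followed by a number, apart from the germline ADP/ATP exchanger gene Slc25a31, which gave 46 genes of 23420 in the table. Transcripts were counted in mouse embryonic stem (ES) cells that had been stably transduced with a lentivirus for KBP(KK/RR), a mutant that the labels call stable, in 3 libraries (replicates 4, 5 and 6), and in ES cells given a lentivirus for wild-type KBP, in 3 libraries (replicates 1, 2 and 3). KBP, the Kif1-binding protein, binds kinesin motors. Both groups were kept in self-renewing conditions and both carry a virus, so the comparison sets mutant against wild-type protein and not against cells without either. The sources used here do not give the ES cell line, the promoter of the virus, or whether cells were pools or clones. Nothing says that the libraries of a group came from separate cultures, so p-values measure the spread between these libraries, which may be technical.

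A carrier of this family spans the inner mitochondrial membrane and moves small molecules between the cytosol and the matrix, usually as an exchange. Its substrates are the currencies of metabolism: ADP and ATP, phosphate, nucleotides, cofactors, amino acids, acylcarnitines, carboxylates of the citric acid cycle and iron. A few relatives sit elsewhere, in peroxisomes or in the outer membrane. In ES cells, which grow fast and draw much of their ATP from glycolysis, the carriers also supply citrate, aspartate and one-carbon units for biosynthesis.

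Total counts ran from 24300832 to 29863560 in the KBP(KK/RR) libraries and from 24131743 to 32160411 in the wild-type KBP libraries. ES cell identity was checked on 6 pluripotency markers, Pou5f1, Nanog, Sox2, Zfp42, Esrrb and Dppa5a. They summed to 4814 to 5032 CPM (counts scaled to TMM-adjusted library totals) in KBP(KK/RR) cells and to 4819 to 4919 CPM in wild-type KBP cells. None was called by edgeR, with Nanog higher (334 against 313 CPM) and Esrrb lower (677 against 722 CPM) in KBP(KK/RR) cells. The 4 neural markers summed to 112 to 123 CPM in KBP(KK/RR) cells and 113 to 117 CPM in wild-type KBP cells. None of these was called, with Map2 higher and Sox1 lower in KBP(KK/RR) cells. The 6 fibroblast or feeder markers summed to 15.2 to 16.2 CPM in KBP(KK/RR) cells and 15.3 to 17.1 CPM in wild-type KBP cells, so they were low but above 0. The 4 markers of the 2-cell-like state summed to 8.21 to 8.78 CPM in KBP(KK/RR) cells, against 5.61 to 5.82 CPM in wild-type KBP cells, and 2 of the 3 tested were called higher by edgeR, as were 1.05% of all genes. Of these, Zscan4c kept its call with each library left out and in DESeq2 (adjusted p = 0.0341), whereas Zscan4d lost it in 3 of the 6 fits with 1 library left out and in DESeq2 (adjusted p = 0.108). The 6 primitive endoderm markers summed to 15.6 to 18.5 CPM in KBP(KK/RR) cells and 18.1 to 21.3 CPM in wild-type KBP cells, with 1 of 6 called lower by edgeR, as were 2.07% of all genes. That gene, Pdgfra, lost its call in 5 of the 6 fits with 1 library left out and had no adjusted p in DESeq2. The part of these markers in the values below was not tested. The KBP gene, listed as 2510003E04Rik, had 56.3, 59.6 and 53.9 CPM in KBP(KK/RR) cells, against 48.3, 47.0 and 49.6 CPM in wild-type KBP cells. It was called higher (log2 fold change 0.23, SE 0.05, edgeR adjusted p = 0.0133), as were 1.05% of all genes. Whether those reads came from the virus or from the cells' own gene is not given. The part of this difference in the values below was not tested.

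The 2 ADP/ATP exchangers Slc25a4 (ANT1) and Slc25a5 (ANT2) are the closest pair in the family by coding sequence, and they are shown here because their read counts are compared throughout. Over their whole coding sequences of 897 bases each they were identical at 77.5% of positions, the highest value among 1035 pairs of members, where the median was 48.8%. The most alike stretch of 90 bases within 1 exon lies in exon 2 of both genes, at coding positions 220 to 309 (GRCm38; Slc25a4 chr8:46209311-46209400, minus strand; Slc25a5 chrX:36796951-36797040, plus strand), from GENCODE M21, and capitals mark the 14 bases that differ.
Slc25a4: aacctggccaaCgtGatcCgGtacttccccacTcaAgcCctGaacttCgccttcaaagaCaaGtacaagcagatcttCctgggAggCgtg
Slc25a5: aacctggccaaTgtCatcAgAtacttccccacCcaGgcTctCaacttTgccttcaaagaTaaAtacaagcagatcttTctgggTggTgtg
The longest run that the coding sequences share is 20 bases, so a longer read from the coding part of either gene holds at least 1 base that tells them apart. Copies outside the family were also compared. Of all 50-base words in the longest Slc25a5 transcript, 46.6% also occur in annotated transcripts of 9 processed pseudogenes, none of which is a row of the count table, and 12.01% of its 100-base words do. The Slc25a5 count is therefore uncertain to the extent that the authors' counting dropped or misplaced such reads. Among the other members, Slc25a35 shared 25.8% of its 50-base words with other genes, Slc25a33 12.6%, Slc25a36 11.8% and Slc25a20 10.99%, while 26 of the 46 shared none.

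Across the family, transcript levels per kilobase were led by the same 5 genes in the same order in both groups when the longest transcript was used. Slc25a5 stood highest, at 548 ± 14.1 CPM per kilobase of its longest transcript in KBP(KK/RR) cells and 509 ± 2.72 in wild-type KBP cells (SD, n = 3 each). Next came Slc25a39, a glutathione carrier, at 127 ± 6.18 CPM per kilobase in KBP(KK/RR) cells and 128 ± 6.02 in wild-type KBP cells, and the phosphate carrier gene Slc25a3, at 124 ± 1.78 in KBP(KK/RR) cells and 116 ± 1.51 in wild-type KBP cells. These neighbours overlapped over the 6 libraries, whereas Slc25a4 lay below them without overlap, at 102 ± 3.21 CPM per kilobase in KBP(KK/RR) cells and 94.9 ± 1.03 in wild-type KBP cells. The oxoglutarate/malate carrier Slc25a11 followed at 47.3 ± 1.91 CPM per kilobase in KBP(KK/RR) cells and 46.2 ± 0.878 in wild-type KBP cells. Slc25a17, the peroxisomal carrier of CoA, FAD and NAD, at 37.5 ± 0.666 CPM per kilobase in KBP(KK/RR) cells and 35.2 ± 0.683 in wild-type KBP cells, overlapped its neighbour Slc25a13 (citrin), at 36.5 ± 0.354 in KBP(KK/RR) cells and 35.5 ± 0.426 in wild-type KBP cells. These levels depend on the transcript assumed, since the longest annotated Slc25a3 transcript has 4039 bases and the mean of its transcripts is 1494. With mean transcript lengths Slc25a3 ranked above Slc25a39, at 325 against 234 CPM per kilobase over all 6 libraries. With coding lengths Slc25a3 and Slc25a4 both did, at 450.1 and 211 against 199 CPM per kilobase, and the fifth place went to Slc25a36 (171) and not to Slc25a11 (84.7). Slc25a5 was first with each of the 3 lengths.

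**Figure D1:**
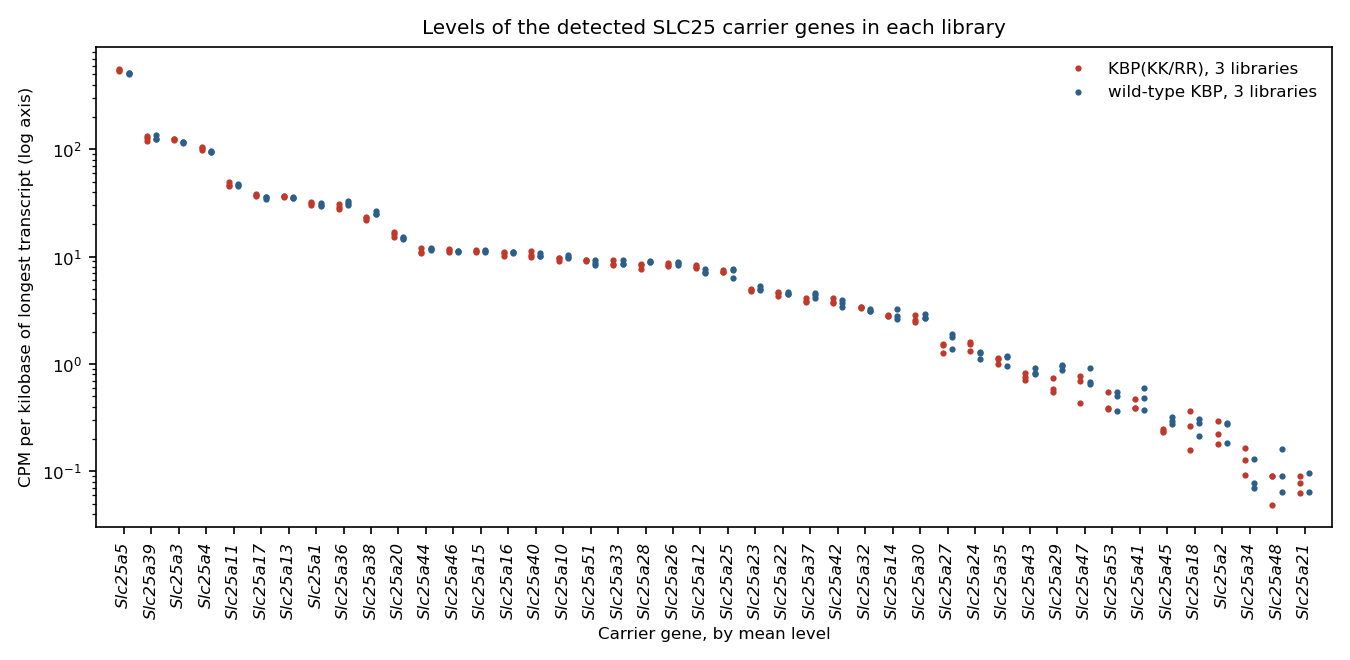
CPM per kilobase of the longest transcript (log axis) for 44 SLC25 genes with any count, ordered by mean level, with 1 point per library (red, KBP(KK/RR); blue, wild-type KBP). Slc25a5 stands alone near 529 over the 6 libraries, the lowest members lie near 0.1, and the 5 highest genes come in the same order in both groups. The 1 library of wild-type KBP with no Slc25a21 count has no point.

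The least abundant members had few counts or none. Slc25a54, a relative of the ATP-Mg/phosphate carriers, had 0 counts in all 6 libraries, where 3 counts per library would correspond to 0.101 to 0.122 CPM in KBP(KK/RR) libraries and 0.0935 to 0.125 CPM in wild-type KBP libraries (counting error only). Slc25a21, the oxodicarboxylate carrier, had 7, 4 and 6 counts in KBP(KK/RR) cells, against 0, 8 and 4 counts in wild-type KBP cells. Slc25a34 had 13, 6 and 10 counts in KBP(KK/RR) cells, against 9, 6 and 5 counts in wild-type KBP cells. Slc25a48 had 9, 4 and 9 counts in KBP(KK/RR) cells, against 8, 7 and 13 counts in wild-type KBP cells. These 4 genes were too low to be tested. The other 42 members passed edgeR's filter on low counts and entered the comparison.

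No SLC25 gene was called changed between KBP(KK/RR) and wild-type KBP cells. Of the 42 tested, 0 were higher and 0 lower at an adjusted p under 0.05 by edgeR's quasi-likelihood test with Benjamini-Hochberg adjustment over all genes, where 3.12% of the 14340 genes tested were called, 1.05% higher and 2.07% lower (151 and 297 genes, or 235 and 205 with upper-quartile scaling, which moved the median of all genes to 0.0158 on the log2 scale). The smallest adjusted p of a member was 0.0877. There were 11 members with an unadjusted p below 0.05, or 26.2% of those tested against 18.6% of all genes. Of these, 6 were higher, where 8.32% of all genes were, and 5 lower, where 10.3% of all genes were. DESeq2 called 0 members among the 34 for which it returned an adjusted p, against 2.72% of the 11281 genes that received one. In DESeq2, 8 of the 42 members had an unadjusted p under 0.05, and the share of all genes was not counted for that test.

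The differences were uncalled, and in 36 of the 42 members the log2 fold change was under 0.2 in size. The median log2 fold change (KBP(KK/RR) minus wild-type KBP) was -0.02 over the 42 members and -0.002 over all genes tested, and the median size was 0.07 for members and 0.08 for all genes. Signs were divided, 18 positive and 24 negative. Among the 29 members with a mean of at least 10 CPM the largest log2 fold change was 0.17 in size, and the bound farthest from 0 at 1.96 standard errors (SE) was 0.29, a 1.22-fold difference. No such bound holds for the 13 tested members below 10 CPM. Among these, Slc25a29 had a log2 fold change of -0.59, with bounds of -0.96 and -0.22. In 9 members (21.4% of those tested) all KBP(KK/RR) libraries lay above all wild-type KBP libraries, against 11.8% of all genes. In 6 members (14.3%) they lay below, against 10.5% of all genes. As these are bulk samples, a different number of cells making a transcript and a different amount per cell cannot be told apart.

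By summed CPM, which is not scaled to transcript length, the carriers of adenine nucleotides and phosphate made up 51.5% of the SLC25 total. Per kilobase of longest transcript their share was 60.7%. Theirs was the class in which KBP(KK/RR) libraries stood higher. The class summed to 1394, 1426 and 1457 CPM in KBP(KK/RR) replicates 4, 5 and 6, against 1346, 1326 and 1325 CPM in wild-type KBP replicates 1, 2 and 3, so the groups did not overlap. The 12 carriers of amino acids and acylcarnitines summed to 616, 631 and 637 CPM in KBP(KK/RR) cells, against 626, 618 and 636 CPM in wild-type KBP cells, which overlapped. Both mitoferrins, the iron carriers, summed to 51.0, 56.3 and 53.4 CPM in KBP(KK/RR) cells, against 59.5, 60.7 and 57.6 CPM in wild-type KBP cells. Here KBP(KK/RR) libraries were the lower ones, without overlap. The 4 carboxylate and keto acid carriers, the 9 carriers of other nucleotides and cofactors, the 3 uncoupling protein-like genes and the 8 others had overlapping sums. As classes were assigned with earlier results of these data known, the sums carry no test.

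**Figure D2:**
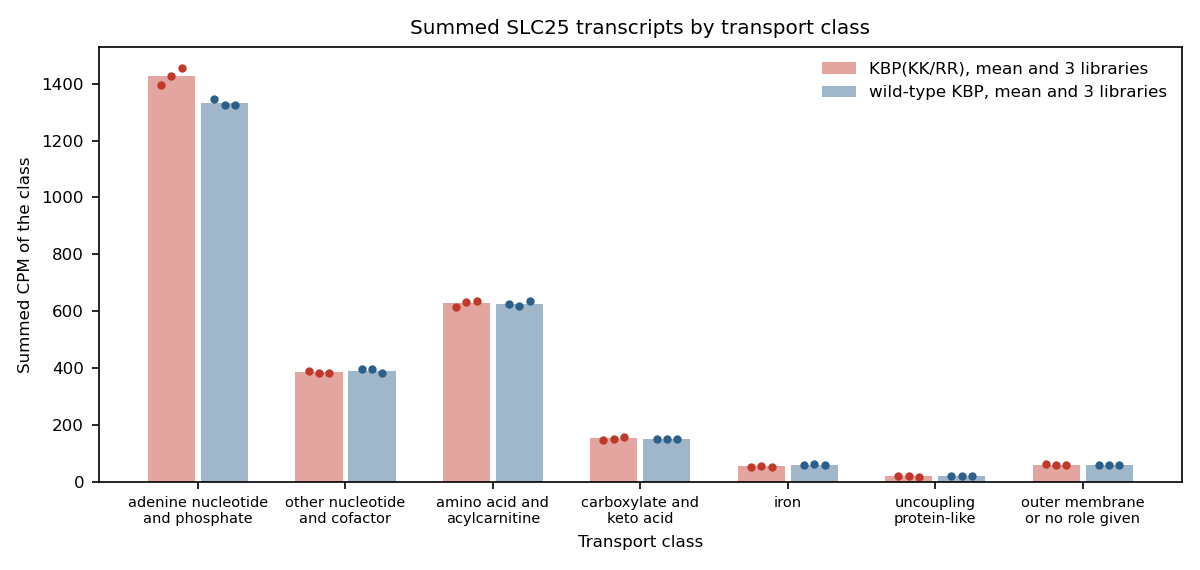
Summed CPM of the SLC25 genes in each of 7 transport classes, with 1 point per library and bars at the mean of 3 (red, KBP(KK/RR); blue, wild-type KBP; axis from 0). The adenine nucleotide and phosphate class is the tallest, at 1394 to 1457 CPM in KBP(KK/RR) libraries and 1325 to 1346 CPM in wild-type KBP libraries, and the amino acid and acylcarnitine sums overlap.

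Among the adenine nucleotide and phosphate carriers, none was called. An unadjusted p under 0.05 with a positive difference was found for 4 of the 7 tested members, against 8.32% of all genes. These were Slc25a5, Slc25a4 and Slc25a3, which together bring ADP and phosphate to ATP synthase and export the ATP made, and Slc25a24, a calcium-regulated carrier of ATP-Mg and phosphate. Slc25a5 (chromosome X, 36795651 to 36798807) had 662, 679 and 697 CPM in KBP(KK/RR) cells, against 635, 630.1 and 629 CPM in wild-type KBP cells. All 3 KBP(KK/RR) libraries were above the wild-type KBP ones, with replicate 6 highest. This is a log2 fold change of 0.10 (SE 0.04, edgeR adjusted p = 0.121), a 1.08-fold difference that did not pass the threshold. Slc25a4 (chromosome 8, 46206797 to 46211284) had 190.3, 196 and 203 CPM in KBP(KK/RR) cells, against 185, 181 and 182 CPM in wild-type KBP cells, again without overlap (log2 fold change 0.10, SE 0.04, edgeR adjusted p = 0.162). Slc25a3 (chromosome 10, 91116574 to 91124059) had 493, 501 and 507 CPM in KBP(KK/RR) cells, against 475, 469.6 and 463 CPM in wild-type KBP cells (log2 fold change 0.09, SE 0.04, edgeR adjusted p = 0.169).

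The ratio of the 2 exchangers was close in both groups, but its size depended on the length assumed. Per kilobase of longest transcript, Slc25a5 exceeded Slc25a4 5.37 ± 0.03-fold in KBP(KK/RR) cells and 5.37 ± 0.03-fold in wild-type KBP cells (SD, n = 3 each). Per kilobase of coding sequence, the ratio was 3.46 ± 0.02 in KBP(KK/RR) cells and 3.46 ± 0.02 in wild-type KBP cells. With Slc25a3, their summed level was 1345, 1376 and 1407 CPM in KBP(KK/RR) cells, against 1295, 1281 and 1274 CPM in wild-type KBP cells. The other 43 members summed to 1334, 1346 and 1358 CPM in KBP(KK/RR) cells, against 1359.7, 1349 and 1354 CPM in wild-type KBP cells, which overlapped. After a smooth trend on transcript length and GC content was removed from each library, the log2 fold change was 0.05 for Slc25a5 (edgeR adjusted p = 0.364), 0.08 for Slc25a4 (0.148) and 0.06 for Slc25a3 (0.287).

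The calcium-regulated members were far less abundant. Slc25a24 (chromosome 3, 109123149 to 109168457) had 5.48, 5.23 and 4.54 CPM in KBP(KK/RR) cells, against 4.44, 3.801 and 4.38 CPM in wild-type KBP cells. Its log2 fold change of 0.28 (SE 0.12, edgeR adjusted p = 0.2001) was the most positive of the 42, and the groups did not overlap, but the lowest KBP(KK/RR) library lay close to the highest wild-type KBP one. Slc25a25 at 0.03 and Slc25a23 at -0.04, of the same kind, had log2 fold changes within 1 SE of 0. Slc25a41, with 11 to 19 counts in each library, had one of -0.25 (SE 0.30).

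**Figure D3:**
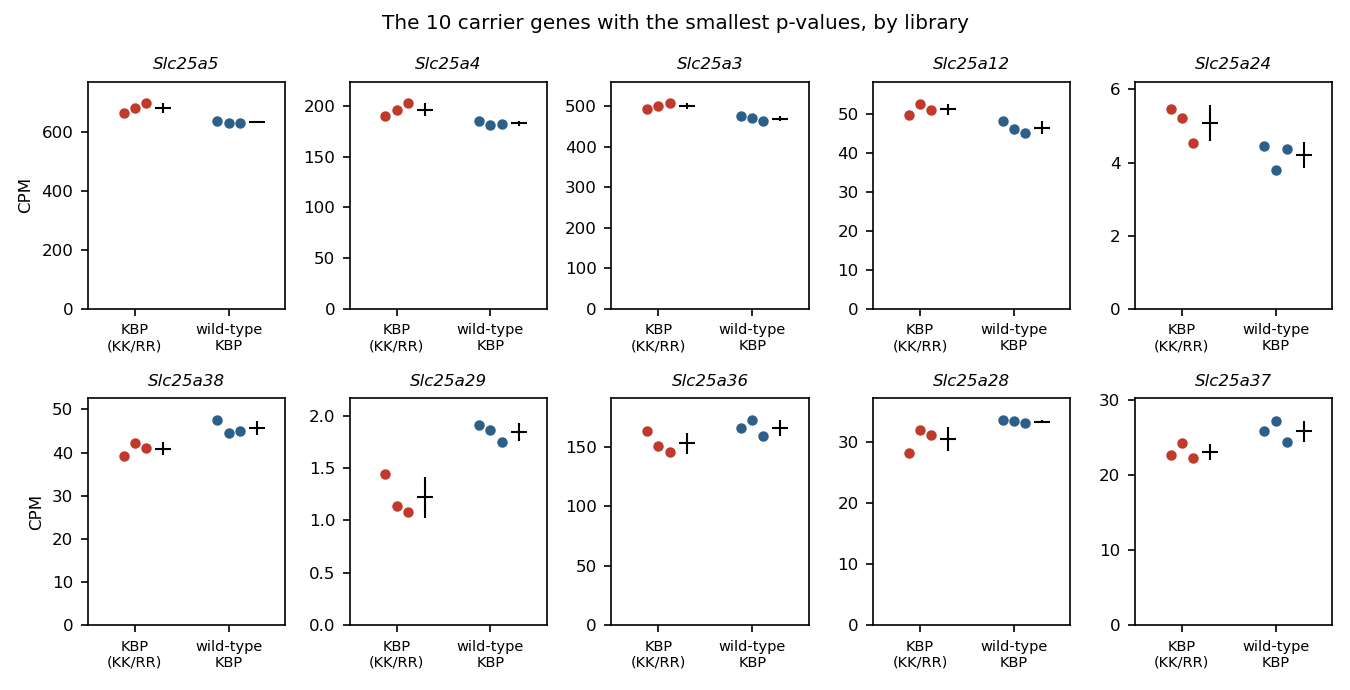
CPM (axis from 0) of the 10 SLC25 genes with the smallest unadjusted p-values, with 1 point per library (red, KBP(KK/RR) replicates 4, 5 and 6 from left; blue, wild-type KBP replicates 1, 2 and 3) and the mean and SD of 3 in black. Slc25a5, for example, has 662 to 697 CPM in KBP(KK/RR) libraries and 629 to 635 CPM in wild-type KBP libraries. Among the 10, Slc25a36 is the gene whose groups overlap.

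None of the 12 carriers of amino acids and acylcarnitines was called, and 4 of them had an unadjusted p under 0.05 (18.6% of all genes did), 2 with positive and 2 with negative differences. Slc25a38, which supplies glycine for heme synthesis, had 39.3, 42.2 and 41.2 CPM in KBP(KK/RR) cells, against 47.5, 44.6 and 44.99 CPM in wild-type KBP cells. All KBP(KK/RR) libraries were lower, with a log2 fold change of -0.16 (SE 0.05, edgeR adjusted p = 0.0881). It passed the threshold with the length and GC trend removed (log2 fold change -0.16, edgeR adjusted p = 0.0331). In that fit 4.67% of all genes passed. The gene lies on chromosome 9, 120110374 to 120124504.

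Slc25a12, or aralar, exchanges aspartate for glutamate and serves the malate-aspartate shuttle. It had 49.7, 52.6 and 51.0 CPM in KBP(KK/RR) cells, against 48.2, 46.0 and 44.99 CPM in wild-type KBP cells, without overlap (log2 fold change 0.14, SE 0.05, edgeR adjusted p = 0.131). With the length and GC trend removed (4.67% of all genes called) it was called higher (log2 fold change 0.18, edgeR adjusted p = 0.0225). Its paralog Slc25a13, or citrin, was more abundant, at 114, 113 and 115 CPM in KBP(KK/RR) cells, against 112, 109.6 and 111 CPM in wild-type KBP cells, with a log2 fold change of 0.04 (SE 0.04, edgeR adjusted p = 0.622). The difference between the 2 paralogs was not tested.

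Slc25a29, a carrier of basic amino acids, had the most negative difference in the family and few reads. It had 43, 28 and 32 counts in the KBP(KK/RR) libraries and 50, 60 and 42 counts in the wild-type KBP libraries, or 1.45, 1.14 and 1.08 CPM against 1.91, 1.87 and 1.75 CPM. The groups did not overlap in CPM, with a log2 fold change of -0.59 (SE 0.19, edgeR adjusted p = 0.0877). It passed the threshold once KBP(KK/RR) replicate 4, its highest mutant library, was left out (log2 fold change -0.74, edgeR adjusted p = 0.0457). In that fit 5.36% of all genes passed. DESeq2's filter on mean counts gave Slc25a29 no adjusted p.

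Slc25a20, the carnitine/acylcarnitine carrier that feeds fatty acid oxidation, was the fourth, at 42.1, 44.4 and 47.0 CPM in KBP(KK/RR) cells, against 41.5, 41.0 and 40.4 CPM in wild-type KBP cells (log2 fold change 0.12, SE 0.05, edgeR adjusted p = 0.227). The most abundant member of this class, Slc25a39, had 202, 214 and 223 CPM in KBP(KK/RR) cells, against 211, 209 and 228 CPM in wild-type KBP cells, and the groups overlapped (log2 fold change -0.02, SE 0.04, edgeR adjusted p = 0.866). Its sign was positive with upper-quartile scaling, with the length and GC trend removed, and when either KBP(KK/RR) replicate 4 or wild-type KBP replicate 3 was left out. The ornithine carrier Slc25a15 averaged 49.9 ± 0.927 CPM in KBP(KK/RR) cells and 49.9 ± 0.584 CPM in wild-type KBP cells (SD, n = 3 each). The glutamate carrier Slc25a22, the branched-chain amino acid carrier Slc25a44 and the glutathione carrier Slc25a40 had log2 fold changes of -0.02, -0.07 and 0.02, and those of Slc25a18 and Slc25a2, at 6 to 17 counts in each library, were both -0.03 with SE of 0.34 and 0.39.

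For nucleotides other than adenine and for cofactors, 1 of 9 members had an unadjusted p under 0.05, against 18.6% of all genes. Slc25a36, a pyrimidine nucleotide carrier (chromosome 9, 97074961 to 97111157), had 163, 151 and 146 CPM in KBP(KK/RR) cells, against 166, 173 and 159.7 CPM in wild-type KBP cells. The groups overlapped, since KBP(KK/RR) replicate 4 lay above wild-type KBP replicate 3, with a log2 fold change of -0.12 (SE 0.05, edgeR adjusted p = 0.173). It was called lower without KBP(KK/RR) replicate 4 (log2 fold change -0.16, edgeR adjusted p = 0.0288), where 5.36% of all genes were called. The same held with the length and GC trend removed (-0.12, edgeR adjusted p = 0.0241), where 4.67% of all genes were called. The other pyrimidine nucleotide carrier, Slc25a33, averaged 16.4 ± 0.930 CPM in KBP(KK/RR) cells and 16.6 ± 0.789 CPM in wild-type KBP cells.

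The peroxisomal member Slc25a17 had 63.5, 65.8 and 64.6 CPM in KBP(KK/RR) cells, against 61.6, 59.4 and 61.3 CPM in wild-type KBP cells, without overlap (log2 fold change 0.09, SE 0.05, edgeR adjusted p = 0.299). With the length and GC trend removed that value was 0.03. Slc25a32, which carries folate and FAD and so bears on one-carbon metabolism, had 20.1, 19.4 and 20.2 CPM in KBP(KK/RR) cells, against 18.3, 18.4 and 19.2 CPM in wild-type KBP cells (log2 fold change 0.10, SE 0.06, edgeR adjusted p = 0.415). Slc25a51, the NAD carrier, had a log2 fold change of 0.07, the S-adenosylmethionine carrier Slc25a26 one of -0.05, the CoA carrier Slc25a42 one of 0.06 and Slc25a16 one of -0.04, none past the threshold.

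Both mitoferrins, which bring iron into the matrix for heme and iron-sulfur clusters, were lower in all 3 KBP(KK/RR) libraries, though neither passed the test. Among all genes, 10.5% lay lower in KBP(KK/RR) libraries without overlap. Slc25a37, or mitoferrin 1 (chromosome 14, 69241848 to 69285112), had 22.7, 24.2 and 22.2 CPM in KBP(KK/RR) cells, against 25.9, 27.2 and 24.4 CPM in wild-type KBP cells (log2 fold change -0.17, SE 0.06, edgeR adjusted p = 0.137). Slc25a28, or mitoferrin 2 (chromosome 19, 43663801 to 43674881), had 28.3, 32.1 and 31.2 CPM in KBP(KK/RR) cells, against 33.6, 33.5 and 33.2 CPM in wild-type KBP cells (log2 fold change -0.13, SE 0.06, edgeR adjusted p = 0.212). For Slc25a28 it was KBP(KK/RR) replicate 4 that lay farthest from the wild-type KBP libraries, and without it the log2 fold change was -0.08.

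The tested carboxylate carriers, which link the citric acid cycle to the cytosol, had log2 fold changes from -0.08 to 0.03. Slc25a11, which exchanges oxoglutarate for malate, had 79.4, 78.5 and 84.6 CPM in KBP(KK/RR) cells, against 80.8, 78.7 and 77.9 CPM in wild-type KBP cells (log2 fold change 0.03, SE 0.05, edgeR adjusted p = 0.756), a value of -0.003 without KBP(KK/RR) replicate 6. The citrate carrier Slc25a1 averaged 51.8 ± 1.61 CPM in KBP(KK/RR) cells and 50.8 ± 1.92 CPM in wild-type KBP cells. The dicarboxylate carrier Slc25a10 averaged 19.2 ± 0.796 CPM in KBP(KK/RR) cells and 20.3 ± 0.594 CPM in wild-type KBP cells (log2 fold change -0.08, SE 0.06). Its groups narrowly did not overlap, with 19.80 CPM in the highest KBP(KK/RR) library and 19.83 CPM in the lowest wild-type KBP one. KBP(KK/RR) libraries lay below without overlap in 10.5% of all genes.

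The uncoupling protein-like genes were low, and all 3 had negative differences with groups that overlapped. Slc25a14 had 5.28, 5.23 and 5.22 CPM in KBP(KK/RR) cells, against 4.86, 6.11 and 5.21 CPM in wild-type KBP cells (log2 fold change -0.05, SE 0.11, edgeR adjusted p = 0.838), with a value of 0.06 without wild-type KBP replicate 2. Slc25a27 averaged 4.15 ± 0.414 CPM in KBP(KK/RR) cells and 4.88 ± 0.821 CPM in wild-type KBP cells (log2 fold change -0.25, SE 0.13, edgeR adjusted p = 0.296). The log2 fold change of Slc25a30 was -0.07 (SE 0.08). Slc25a46, an outer membrane protein of mitochondrial dynamics, had 51.5, 48.6 and 50.6 CPM in KBP(KK/RR) cells, against 48.3, 49.2 and 49.2 CPM in wild-type KBP cells, and the groups overlapped (log2 fold change 0.04, SE 0.05, edgeR adjusted p = 0.705). It was 0.007 with the length and GC trend removed. The members with no role given here that were tested, Slc25a35, Slc25a43, Slc25a45, Slc25a47 and Slc25a53, had log2 fold changes from -0.31 to -0.03 with SE from 0.12 to 0.26.

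**Figure D4:**
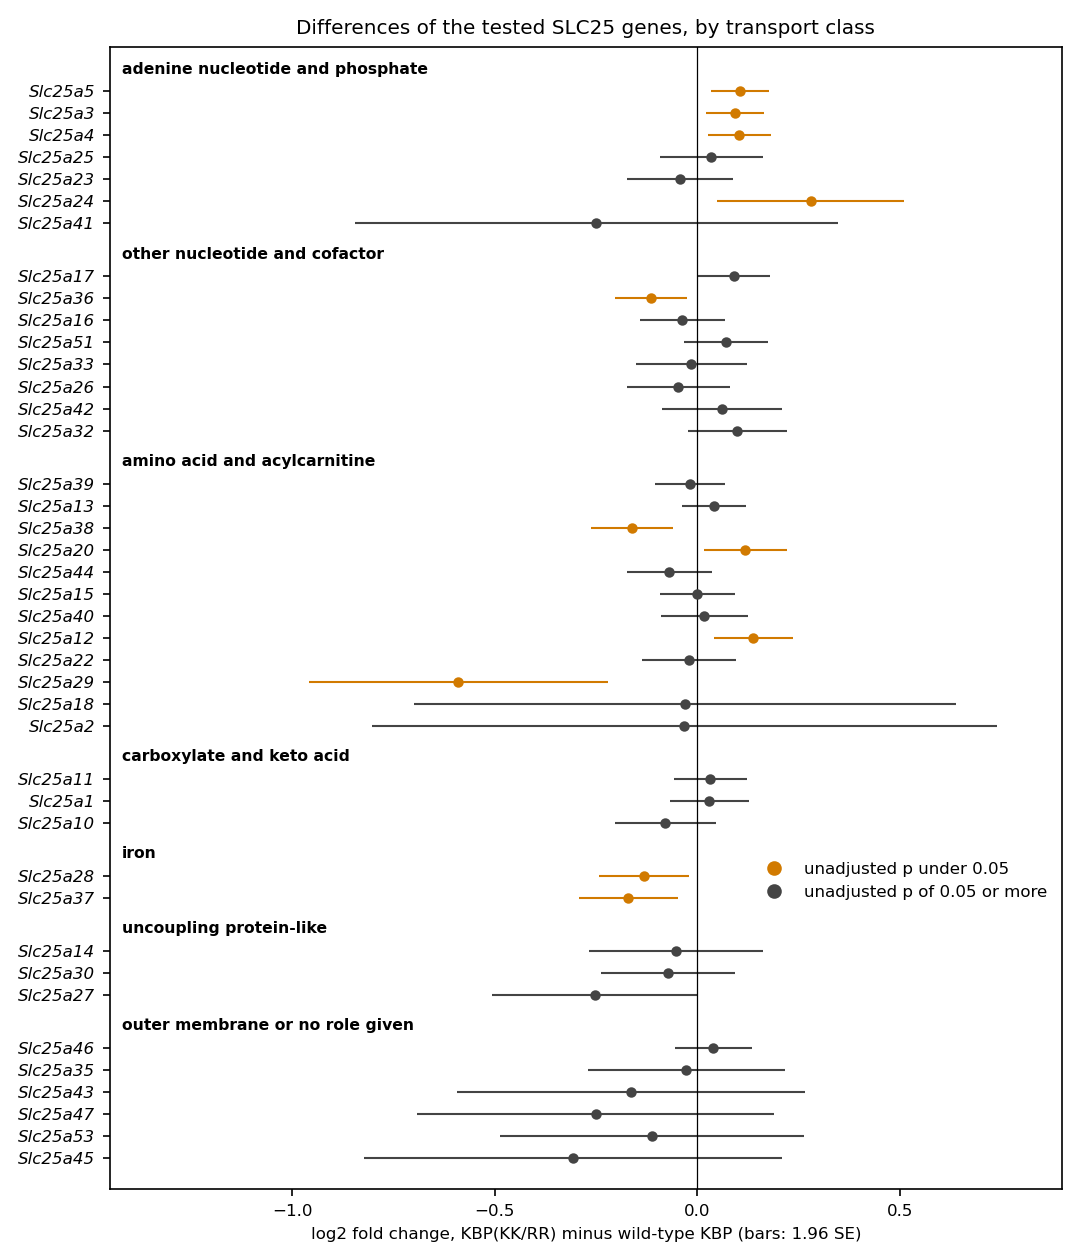
Log2 fold change of 41 of the 42 tested SLC25 genes, KBP(KK/RR) minus wild-type KBP, grouped by transport class and ordered within it by level, with bars of 1.96 SE. The 11 genes with an unadjusted p under 0.05 are orange and the others grey, and none had an adjusted p under 0.05. Bars are short for abundant genes such as Slc25a5 (SE 0.04) and long for rare ones such as Slc25a2 (SE 0.39).

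By the median, members below 10 CPM were measured less precisely than the more abundant ones. The within-group coefficient of variation of the 29 members with at least 10 CPM had a median of 3.63% in KBP(KK/RR) cells and 3.21% in wild-type KBP cells, and SE of their log2 fold changes ran from 0.04 to 0.08. For the 13 tested members below 10 CPM, the median coefficients were 9.99% in KBP(KK/RR) cells and 11.9% in wild-type KBP cells. Their SE reached 0.39. The ranges of the coefficients overlapped, at 0.534% to 9.42% and 4.55% to 22.7% in wild-type KBP cells. In KBP(KK/RR) cells the lowest value was that of Slc25a14, a member below 10 CPM, at 0.61%. Of the 13 members below 10 CPM, 1 had a positive log2 fold change and 12 had negative ones (median -0.11). Among all genes at that level, 49.2% had positive ones (median -0.004). An unadjusted p under 0.05 was found for 2 of the 13, Slc25a24 (higher) and Slc25a29 (lower). Several of the negative values lay within 1 SE of 0, as for Slc25a2 (-0.03, SE 0.39). With 1 library left out the number of negative values was between 9 of 13 (without wild-type KBP replicate 1) and 11 of 13 (without KBP(KK/RR) replicate 5). Of the 6 members at 100 CPM or more, 4 had positive differences, against 54.2% of all genes at that level. Of the 23 members at 10 to 100 CPM, 13 had positive ones, where 47.4% of all genes did.

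Members lay on 19 chromosomes, with 4 on the X, and 4 pairs lay within 100 kb of each other. On chromosome 12 Slc25a29 and Slc25a47 start 0.162 kb apart on opposite strands, and their log2 fold changes were -0.59 and -0.25. On chromosome 17 Slc25a41 and Slc25a23 lie 2.06 kb apart (-0.25 and -0.04). The X-linked Slc25a43 and Slc25a5, 18.4 kb apart, differed in sign at -0.16 and 0.10. On chromosome 3 the undetected Slc25a54 lies 6.46 kb from Slc25a24. Exons of 12 members overlap a gene on the opposite strand, most in Slc25a35, which shares 31.3% of its exonic bases with Rangrf. As the strand setting of the counting is not given, reads of such pairs cannot be told apart here.

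Transport genes outside the SLC25 names were not called either with all 6 libraries. Of 40 tested genes in 9 lists, edgeR called 0 (3.12% of all genes tested were called). DESeq2 called 0 of the 39 that received an adjusted p from it (2.72% of all genes that received one). An unadjusted edgeR p under 0.05 was found for 11 of the 40, where 18.6% of all genes had one. Of these 11, 7 were higher and 4 lower, against 8.32% and 10.3% of all genes. The smallest p among carrier genes of other names was that of Mtch1, an outer membrane relative, at 99.6 ± 4.31 CPM in KBP(KK/RR) cells and 98.3 ± 6.81 CPM in wild-type KBP cells (log2 fold change 0.02, SE 0.05), with Mtch2 also at 0.02 and the uncoupling protein gene Ucp2 at -0.01. Of the porins, which let metabolites cross the outer membrane, Vdac3 had 142, 138 and 143 CPM in KBP(KK/RR) cells, against 133, 134 and 129 CPM in wild-type KBP cells (log2 fold change 0.10, SE 0.04, edgeR adjusted p = 0.194). Atp5o, a subunit gene of ATP synthase, which uses the ADP and phosphate that these carriers bring, had 217, 235 and 233 CPM in KBP(KK/RR) cells, against 214, 207 and 209 CPM in wild-type KBP cells (log2 fold change 0.12, SE 0.04, edgeR adjusted p = 0.115).

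Among shuttle enzymes the smallest p was that of the cytosolic malate dehydrogenase gene Mdh1, at 209, 208 and 227 CPM in KBP(KK/RR) cells, against 192, 195 and 196 CPM in wild-type KBP cells (log2 fold change 0.14, SE 0.04, edgeR adjusted p = 0.0611). Me1, of the same list, had a log2 fold change of 0.21 (SE 0.06, edgeR adjusted p = 0.0621). Mdh1, Me1 and Atp5o missed the threshold in 5 of the 6 fits with 1 library left out and passed it in the other. Such fits called 0.852% to 5.36% of all genes. Mdh1 and Slc25a12 serve the same shuttle, while its aminotransferase gene Got1 had a log2 fold change of -0.01 and Got2 one of 0.04. Abcb6, a porphyrin transporter, was lower in all 3 KBP(KK/RR) libraries, at 38.1, 39.2 and 38.3 CPM, against 42.5, 42.6 and 41.9 CPM in wild-type KBP cells (log2 fold change -0.14, SE 0.05, edgeR adjusted p = 0.138). The sideroflexin gene Sfxn2 had a log2 fold change of -0.18 (SE 0.08) and Cpt1a, which makes the acylcarnitines that Slc25a20 carries, one of -0.11 (SE 0.05), opposite in sign to Slc25a20. The pyruvate carrier subunit Mpc2 had a log2 fold change of 0.12 (SE 0.08) and Letm1, of the calcium list, one of -0.06 (SE 0.05).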

How the data were processed

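Total RNA of 3 libraries a group was cleared of ribosomal RNA (RiboZero) before ScriptSeq v2 library preparation, per the labels' protocols. The submitters' processing notes name bcl2fastq, TopHat, HTSeq, DESeq2, mm10 and GRCm38. The sources used here do not give the annotation, strand setting or filters. The authors deposited raw read counts per gene symbol, and a normalized signal that by its values is each count over a library factor. Multiplied back, 100% of its values above 0 were whole within 0.01, 0 differed from the raw counts, and the count test on these reads called 448 genes, as on the raw counts.

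All 23420 symbols entered edgeR 4.0.16 under R 4.3.3 (filterByExpr, TMM factors, robust quasi-likelihood fit). Of these, 14340 were tested, and Benjamini-Hochberg adjusted p under 0.05 was called. SE is the absolute log2 fold change over the square root of F. CPM uses TMM-scaled totals, and depth limits low genes most. Replicates differed by more than counting noise (chi-square per degree of freedom from 2.60 to 6.79). Levels per kilobase use the longest GENCODE M21 transcript, and all 46 members matched. The values of 1 member are not reported here, though it is counted in the totals. Members, classes and lists were chosen with earlier results of these data known. Library values are given for called members, the 10 with the smallest p, the most abundant per class and the extremes, and for a few others chosen after their values were seen. From the other transport lists the gene with the smallest p is given, and Mtch2, Ucp2, Got1, Got2 and Me1 were added after their values were seen. The fit was tested on simulated counts. Alternatives were DESeq2 1.42.0, limma 3.58.1 (voom, and log2 of the signal plus 1), other scalings, filters and thresholds, a length and GC trend removed through offsets (splines, 5 degrees of freedom), and each library left out.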

Additional observations from a re-analysis of the deposited data

How the results depend on the processing

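No paired analysis was possible because the labels give the groups no replicate number in common. The count of members called was 0 higher and 0 lower under 6 planned changes of test, scaling or filter, and with the normalized signal. It was also 0 and 0 with the recovered reads and at the threshold of 0.01. There the outcome was fixed in advance, as those reads equal the raw counts and no member passed 0.05. With the length and GC trend removed 1 member was called higher (Slc25a12) and 2 lower (Slc25a36 and Slc25a38). That fit called 4.67% of all genes tested, 305 higher and 365 lower, against 3.12% in the main fit. At an adjusted p under 0.1 there were 0 members higher and 2 lower (Slc25a29 and Slc25a38), with 5.74% of all genes called. Leaving out 1 library gave 0 higher in each case and 0 to 2 lower. The 2 were Slc25a29 and Slc25a36 without KBP(KK/RR) replicate 4, a fit that called 5.36% of all genes. The members' median log2 fold change was -0.0235, and ran from -0.0315 without wild-type KBP replicate 2 to -0.00125 without replicate 3. Over all genes 448 were called, 966 without a low-count filter, 130 at an adjusted p under 0.01, 823 at 0.1, and 122 (without KBP(KK/RR) replicate 6) to 767 (without replicate 4) when 1 library was left out. The 3 most abundant members held 61.9% of the summed level per kilobase, 57.5% with mean transcript lengths and 52.2% with coding lengths (chosen after seeing the data), and 61.8% to 62.1% with 1 library left out. Of 255 values for 15 named members in 17 settings, 242 kept direction and side of the threshold, 7 passed it and 6 changed sign. The 242 include all values of the recovered reads and of the threshold of 0.01, which could not differ. They also include Slc25a29 in DESeq2, which had no adjusted p and was judged by its sign alone. Slc25a39 changed to 3.05e-04 with upper-quartile scaling and 0.0181 with the trend removed, and ran from -0.0520 to 0.0206 with 1 library left out (0.0206 without replicate 3, 0.0190 without replicate 4). Slc25a11 ran from -0.00252 (without replicate 6) to 0.0516, and Slc25a14 from -0.123 to 0.0619 (without replicate 2). The cause was not tested.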
